A study of Mus musculus with 7 samples.

Results

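The complement and coagulation factors described here are 39 genes, given as a fixed list of symbols for plasma proteins of complement, clotting, anticoagulation and fibrinolysis. All 39 are listed among the 12151 genes of the deposited expression table, and all 39 passed the filter on low values that left 12105 genes for testing. RNA was sequenced from isolated mouse hepatocytes in 7 libraries, 3 of wild-type genotype (WT, treatment label "non") and 4 labelled ALAS1/2-KO with a tamoxifen treatment label. In ALAS1/2-KO a conditional Alas1 allele allows Cre-inducible removal of exons 4 to 5, and Alas2 was further lowered with siRNA coupled to GalNAc, a sugar that directs the molecule to hepatocytes. Genotype, tamoxifen and siRNA therefore changed together and cannot be told apart. The Cre driver, the age and sex of the mice, and whether WT mice received a control siRNA were not given in the sources used here. No label says that replicates are separate animals, so p-values measure library-to-library spread alone, and that spread may be technical.

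Complement and coagulation are cascades of serine proteases that circulate as inactive precursors, and the liver parenchymal cell is the main source of most of their components. In complement, surface recognition by antibody-bound C1q or by lectins leads to cleavage of C4, C2 and C3, and the terminal proteins C5 to C9 then assemble a pore in the target membrane. In coagulation, tissue factor with factor VII, or the contact system with factors XII and XI, leads through factor X to thrombin, which turns fibrinogen into fibrin. Serpins hold both cascades in check, the protein C system limits coagulation, and plasmin dissolves the clot.

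The WT libraries held 22916097 to 34048680 listed reads and the ALAS1/2-KO libraries 27933939 to 30195635. CPM here means reads relative to the authors' scaled library size, taken off the deposited log2 scale with its floor subtracted. Alas2, the siRNA target, stood at 16.9, 10.3 and 6.65 CPM in the WT libraries and 0.333, 0.80, 0.428 and 0.198 CPM in the ALAS1/2-KO libraries (log2 fold change -4.51 ± 0.46 SE, 22.8-fold lower, limma adjusted p = 0.0027). Alas1 stood at 279.5, 265 and 83.5 CPM in the WT libraries and 287, 332, 307 and 361 CPM in the ALAS1/2-KO libraries but missed the threshold (log2 fold change 0.80 ± 0.41 SE, 1.75-fold higher, limma adjusted p = 0.277), and a value for the whole gene does not check a deletion of 2 exons. It passed with CPM rescaled to listed reads (limma adjusted p = 0.0432). All 10 hepatocyte markers on a fixed list were listed, and albumin (Alb) was the 1 that passed, lower in ALAS1/2-KO at 93954, 100209 and 99527 CPM in the WT libraries and 55979, 54167, 49928 and 53561 CPM in the ALAS1/2-KO libraries, although its log2 fold change of -0.87 turned to 0.28 with quantile normalization. The other 9 hepatocyte markers had positive log2 fold changes, from 0.03 (Serpina1c) to 0.42 (Cps1), and did not pass. Of these, 3 (Ttr, Apoa1 and Apob) had an unadjusted p under 0.05 and groups that did not overlap. Mitochondrially encoded genes took 31.9% to 43.2% of listed reads in the WT libraries and 16.8% to 27.3% in the ALAS1/2-KO libraries. ALAS1/2-KO replicates 1 and 2 had the lowest summed levels of Kupffer, endothelial and stellate markers of the 7 libraries. The Kupffer and macrophage sum over 11 genes was 251 and 753 CPM in those libraries and 980 to 1597 CPM in the others. The stellate and fibroblast sum over 9 genes was 269 to 492 CPM in WT and 60.7 to 304 CPM in ALAS1/2-KO, where 8 of the 9 were lower at an unadjusted p under 0.05 and 0 were called by limma or voom. Among scarcer cell types, the groups overlapped for platelets and for neutrophils. The platelet and megakaryocyte sum over 2 genes was 4.13 to 5.69 CPM in WT and 1.63 to 4.25 CPM in ALAS1/2-KO. The neutrophil sum over 3 genes was 12.738 to 17.504 CPM in WT and 3.598 to 13.018 CPM in ALAS1/2-KO. Red cell, cholangiocyte, and B and T cell sums were lower in each of the 4 ALAS1/2-KO libraries than in any WT library. The red cell sum over 4 genes was 11.3 to 41.3 CPM in WT and 2.75 to 7.39 CPM in ALAS1/2-KO, the cholangiocyte sum over 2 genes 12.1 to 21.1 and 2.72 to 5.35 CPM, and the B and T cell sum over 2 genes 3.18 to 5.36 and 0.484 to 1.94 CPM. Spp1 (cholangiocyte), Cd79a (B cell) and Hbb-bt (red cell) were called lower by limma, and voom did not call Hbb-bt. The part of these cells in the differences of the members and of Alas2 was not tested. In bulk RNA, fewer cells of a type and less RNA per cell cannot be told apart.

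Of the 39 factors, 12 differed between the groups, in both directions and in most branches of the cascades. Higher in ALAS1/2-KO were the lectin Mbl2, its protease Masp2, the pore subunit C8b, the kininogen gene Kng1, the clotting proteases F7 and F10, and antithrombin (Serpinc1). Lower were the pore protein C6, factor XIII subunit B (F13b), factor XI (F11), plasma prekallikrein (Klkb1) and protein S (Pros1). The central component C3, the 3 fibrinogen chains, prothrombin (F2) and plasminogen (Plg) did not pass. With limma, an adjusted p under 0.05 was reached by 12 of 39 members (30.8%), 7 higher and 5 lower, against 5.1% of all genes tested (2.91% higher, 2.19% lower). Among the 1719 genes averaging 50 CPM or more, closer to the members in abundance, the share was 11.8%. The groups did not overlap for 20 members (51.3%), 12 higher and 8 lower, against 22.7% of all genes (11.3% higher, 11.4% lower) and 30% of the abundant ones. An unadjusted p under 0.05 was reached by 20 members, 11 higher and 9 lower, against 23.7% of all genes. The median log2 fold change was 0.04 over members and -0.02 over all genes tested, so the members did not move one way as a group. The median absolute log2 fold change was 0.30 over members and 0.22 over all genes.

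**Figure D1:**
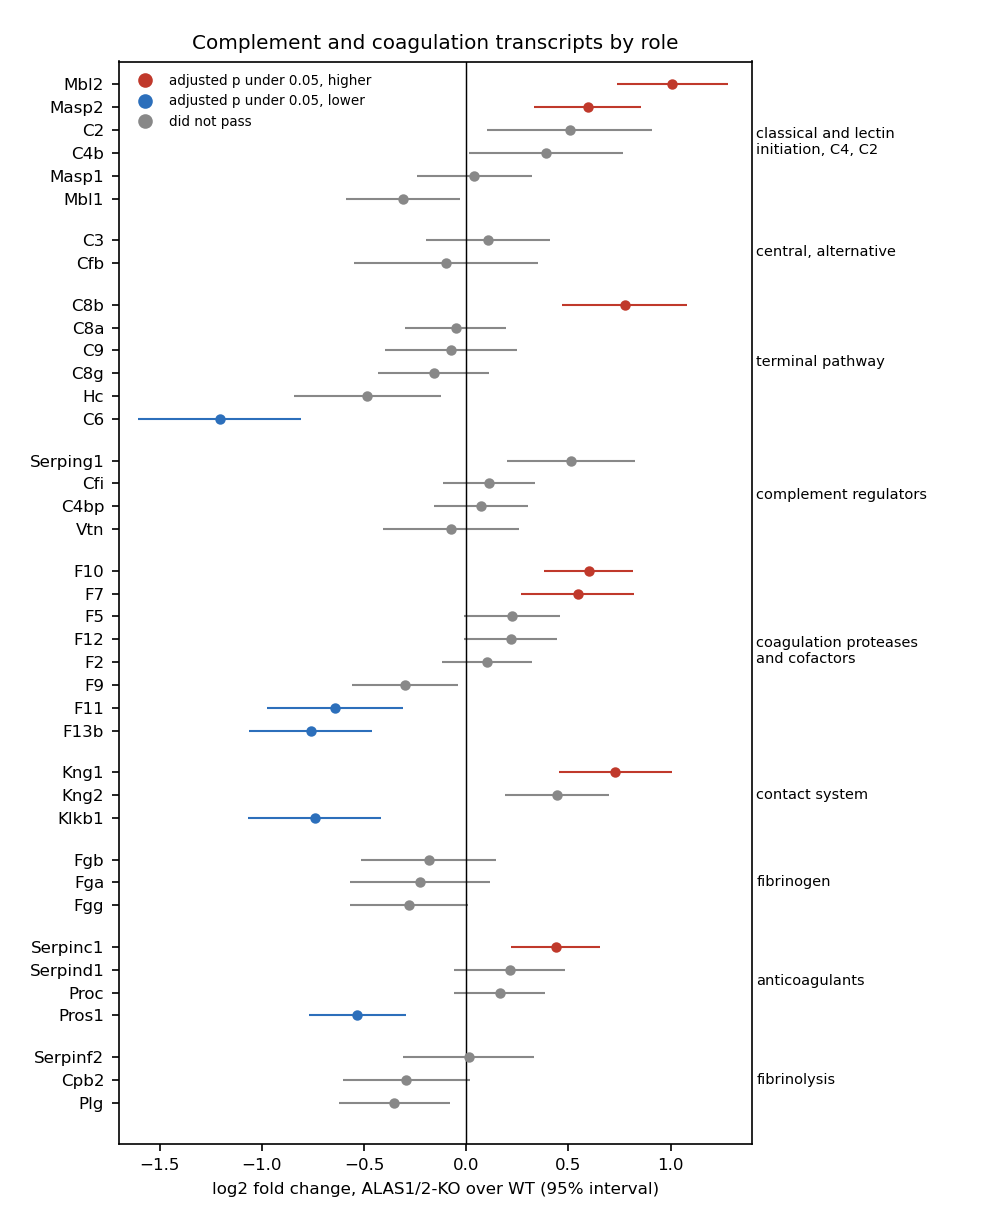
Log2 fold change of each of the 39 members, ALAS1/2-KO over WT, with its 95% interval from limma (x axis), ordered within role groups (y axis). Red and blue points mark the 7 higher and 5 lower members at an adjusted p under 0.05, which fall on both sides of 0 in the terminal, coagulation, contact and anticoagulant groups.

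The 12 differences kept their direction in each of the 19 other settings and library sets that were run. When CPM were rescaled to listed reads, the median of all genes rose to 0.32, 92.6% of all calls were higher, and 18 members were called higher and 1, C6, lower. F13b, Klkb1, F11 and Pros1 then lost their calls (limma adjusted p = 0.0916, 0.0676, 0.198 and 0.231) with log2 fold changes of -0.43, -0.41, -0.31 and -0.20, beside that median of 0.32. With scaling that left out the 20 most abundant and the mitochondrial genes, the share of higher calls among all genes was 42.4% against 57.1%, and Serpinc1 was at 0.0518. Quantile normalization ended the calls of Masp2 (0.0605) and Serpinc1 (0.0592). Without an intensity trend in limma, F11 (0.0792), F7 (0.0727), Pros1 (0.0593), Serpinc1 (0.0593), Klkb1 (0.0546) and Masp2 (0.0527) did not pass. Limma voom on the recovered reads called the same 12 members. With a block on replicate number, which drops ALAS1/2-KO replicate 4 from the contrast, limma called 0 of them. The number of members called depended on single libraries. Leaving out WT replicate 2 left Mbl2 as the only one. The calls were 5 higher and 1 lower when WT replicate 1 was left out, and 3 higher and 2 lower when it was WT replicate 3. Dropping ALAS1/2-KO replicate 1 gave 9 higher and 5 lower, dropping replicate 2 gave 4 higher and 2 lower, dropping replicate 3 gave 5 higher and 2 lower and dropping replicate 4 gave 3 higher and 4 lower. Calls gained elsewhere were those of Hc and F9 with quantile normalization (0.0279 and 0.0462), and with array weights those of Hc (0.0289), C2 (0.017), Serping1 (0.0138), Kng2 (0.012), Fgg (0.0474) and Plg (0.0441).

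**Figure D2:**
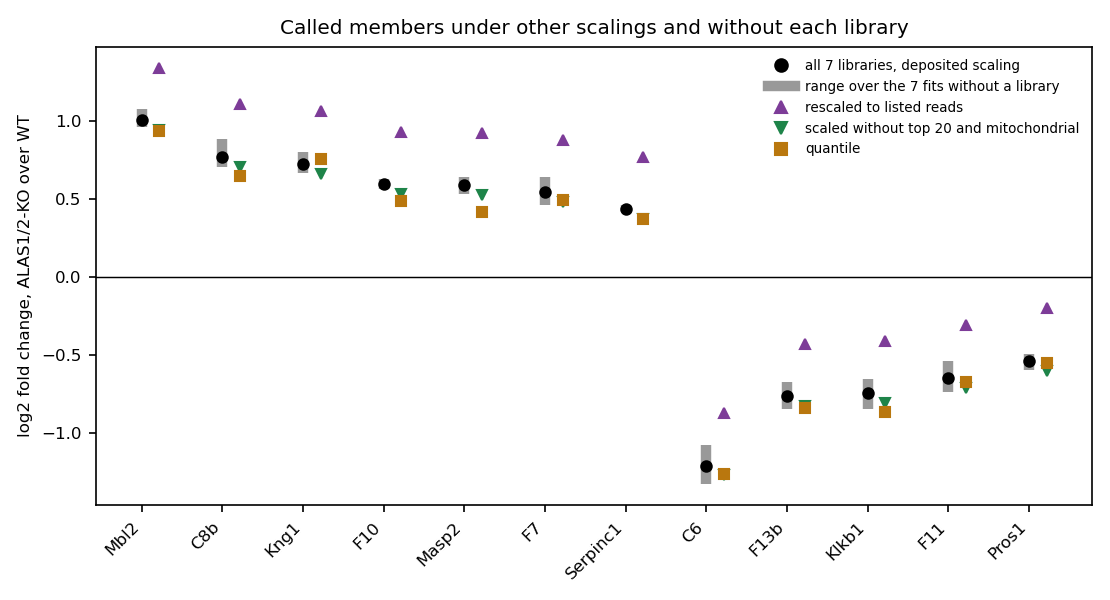
Log2 fold change, ALAS1/2-KO over WT (y axis), of the 12 members that passed (x axis), with all libraries (black), as the range over the 7 fits that leave out a library (grey bar), and under 3 other library scalings (coloured symbols). Each member stays on its side of 0, and rescaling to listed reads lifts all 12, bringing Pros1 to -0.20.

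In the branch that initiates complement through lectins, C4 and C2, Mbl2 had the largest rise of all members. Mbl2, mannose-binding lectin C (chr19:30232942-30239687, plus strand, mm10), binds sugars on microbial surfaces and carries MASP proteases. It stood at 429, 500.0 and 429 CPM in the WT libraries and 802, 955, 1003 and 887 CPM in the ALAS1/2-KO libraries, in replicate order here and below. Every ALAS1/2-KO library lay above every WT library, and ALAS1/2-KO replicate 3 was the highest (log2 fold change 1.01 ± 0.12 SE, 2.01-fold higher, limma adjusted p = 0.00439). Mbl2 kept its call whichever of the 7 libraries was left out, with limma adjusted p-values from 0.00244 to 0.0299. With a block on replicate number its limma adjusted p was 0.052, so it did not pass. Masp2, the protease that cleaves C4 and C2 (chr4:148602554-148615499, plus strand), stood at 267, 233 and 249.7 CPM in the WT libraries and 387, 428, 339.5 and 358 CPM in the ALAS1/2-KO libraries. The groups did not overlap, and ALAS1/2-KO replicate 2 was the highest library (log2 fold change 0.59 ± 0.11 SE, 1.51-fold higher, limma adjusted p = 0.0284). Masp2 lost its call without WT replicate 1 (0.0596), WT replicate 2 (0.142), WT replicate 3 (0.0652), ALAS1/2-KO replicate 2 (0.0504) or ALAS1/2-KO replicate 4 (0.0597). Of its exonic bases, 54.9% lie within exons of Tardbp on the other strand, and whether the authors counted by strand is not given, so reads of both genes may be mixed. Tardbp itself fell, from 56.9 to 41.2 CPM (limma adjusted p = 0.0269), opposite to Masp2. Tardbp did not pass when WT replicate 1 (0.0845) or 2 (0.128) was left out, or ALAS1/2-KO replicate 2 (0.0509), 3 (0.0645) or 4 (0.0545), with CPM rescaled to listed reads (0.444) or without a limma trend (0.0587).

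The other 4 genes of this branch did not pass. C4b, which encodes the complement component cleaved by C1s and MASP2, stood at 1621, 1151 and 1000.1 CPM in the WT libraries and 1539.5, 1744, 1527 and 1651 CPM in the ALAS1/2-KO libraries. WT replicate 1 overlapped the ALAS1/2-KO libraries and the other WT libraries lay below them (log2 fold change 0.39 ± 0.17 SE, 1.31-fold higher, limma adjusted p = 0.2). C4b has a near-identical neighbour, C4a, so the split of reads between them is uncertain. C2 ranged from 14.7 to 18.2 CPM among WT libraries and from 17.3 to 29.9 CPM among ALAS1/2-KO libraries (log2 fold change 0.51 ± 0.18 SE, 1.42-fold higher, limma adjusted p = 0.136), and passed without ALAS1/2-KO replicate 1 (0.035). Mbl1, the other mouse mannose-binding lectin, ranged from 114 to 137 CPM among WT libraries and from 89.1 to 114 CPM among ALAS1/2-KO libraries (log2 fold change -0.31 ± 0.12 SE, 1.24-fold lower, limma adjusted p = 0.175). Masp1 had the smallest difference of the branch (log2 fold change 0.04 ± 0.12).

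The sequence before the Mbl2 start is shown with that of C6 because these members had the largest rise and the largest fall. Both are RefSeq windows on GRCm38.p6, the same build as mm10, read 5′ to 3′ on the gene's strand from 250 bases before to 30 bases after the RefSeq start. Capitals here and in the windows further on mark matches, on either strand, to 5 short letter strings searched: CTGGGAA (core of the interleukin-6 response element), GTTAAT (HNF1 half-site), CAAAGTC (HNF4 core), TTGCAAT (C/EBP half-site) and CCAAT. The Mbl2 window held none of them, and the C6 window held TTGCAAT and CTGGGAA, both on the opposite strand.
Mbl2 (chr19:30232678-30232957, plus strand): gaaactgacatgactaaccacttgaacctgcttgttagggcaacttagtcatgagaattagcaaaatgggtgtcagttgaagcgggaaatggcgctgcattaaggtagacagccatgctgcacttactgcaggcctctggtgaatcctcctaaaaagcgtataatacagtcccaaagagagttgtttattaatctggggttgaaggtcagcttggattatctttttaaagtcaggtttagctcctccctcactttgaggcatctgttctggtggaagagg
C6 (chr15:4726960-4727239, plus strand): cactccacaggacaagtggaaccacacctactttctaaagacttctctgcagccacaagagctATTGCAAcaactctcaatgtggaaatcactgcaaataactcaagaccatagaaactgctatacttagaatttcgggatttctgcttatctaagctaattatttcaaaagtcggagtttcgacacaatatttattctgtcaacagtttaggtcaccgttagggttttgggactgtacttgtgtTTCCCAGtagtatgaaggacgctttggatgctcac

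The pore-forming terminal pathway held changes in opposite directions. C6 (chr15:4727175-4814967, plus strand) binds C5b and so starts the membrane attack complex. It stood at 210.2, 181 and 153 CPM in the WT libraries and 78.1, 59.2, 84.3 and 94.4 CPM in the ALAS1/2-KO libraries. The highest ALAS1/2-KO library was well below the lowest WT library (log2 fold change -1.21 ± 0.18 SE, 2.31-fold lower, limma adjusted p = 0.0101). Of the 7 fits without a library, only that without WT replicate 2 ended the call, at a limma adjusted p of 0.0704. With a block on replicate number it was 0.0586. C8b, the beta chain of C8 that binds the growing complex (chr4:104766317-104804548, plus strand), stood at 509.7, 394 and 408 CPM in the WT libraries and 816, 813, 661 and 695 CPM in the ALAS1/2-KO libraries. ALAS1/2-KO replicates 1 and 2 were highest, and none overlapped WT (log2 fold change 0.77 ± 0.13 SE, 1.71-fold higher, limma adjusted p = 0.0218). Its call was lost without WT replicate 2 (0.118) or WT replicate 3 (0.0595).

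C8a, the alpha chain that enters the membrane, did not follow C8b. It stood at 816, 713 and 715 CPM in the WT libraries and 761, 714, 651 and 758 CPM in the ALAS1/2-KO libraries, with overlapping groups (log2 fold change -0.05 ± 0.11 SE, 1.04-fold lower, limma adjusted p = 0.805). C8g, the gamma chain bound to C8a, ranged from 288 to 378 CPM among WT libraries and from 269 to 308 CPM among ALAS1/2-KO libraries (log2 fold change -0.16 ± 0.12 SE, 1.12-fold lower, limma adjusted p = 0.456). Hc, the mouse name of C5, stood at 1156, 941 and 924 CPM in the WT libraries and 854, 701, 571 and 771 CPM in the ALAS1/2-KO libraries. Every ALAS1/2-KO library lay below every WT library, but the difference did not pass (log2 fold change -0.48 ± 0.16 SE, 1.4-fold lower, limma adjusted p = 0.118). C9, whose copies line the pore, had a log2 fold change of -0.07 ± 0.14 and overlapping groups.

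C8b and C8a are neighbours on chromosome 4, 11.13 kb apart with no protein-coding gene between them, and their promoter windows are shown because the pair differed. Each window held GTTAAT once, on the gene's strand in C8a and on the other strand in C8b, and C8b also held CCAAT.
C8b (chr4:104766067-104766346, plus strand): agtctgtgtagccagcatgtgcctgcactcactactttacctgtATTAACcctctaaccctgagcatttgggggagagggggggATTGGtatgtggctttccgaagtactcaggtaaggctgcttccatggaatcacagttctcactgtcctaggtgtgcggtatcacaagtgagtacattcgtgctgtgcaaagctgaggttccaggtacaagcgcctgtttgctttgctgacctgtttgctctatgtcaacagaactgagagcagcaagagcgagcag
C8a (chr4:104876369-104876648, minus strand): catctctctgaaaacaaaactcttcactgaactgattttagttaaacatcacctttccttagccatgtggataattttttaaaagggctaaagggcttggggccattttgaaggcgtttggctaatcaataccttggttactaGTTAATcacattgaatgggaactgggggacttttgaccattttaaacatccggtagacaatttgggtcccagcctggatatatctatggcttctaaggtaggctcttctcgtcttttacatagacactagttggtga

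C3 and the alternative pathway gene Cfb did not pass. C3, on which all initiation routes converge, stood at 13187, 9817 and 10471 CPM in the WT libraries and 12582, 11694, 11040.5 and 12366 CPM in the ALAS1/2-KO libraries and was the most abundant member per kb of exon. WT replicate 1 was the highest of all 7 libraries and the groups overlapped (log2 fold change 0.11 ± 0.13 SE, 1.08-fold higher, limma adjusted p = 0.668). Cfb, factor B, was the least abundant member, at 4.23, 3.18 and 2.75 CPM in the WT libraries and 3.14, 2.89, 3.12 and 3.27 CPM in the ALAS1/2-KO libraries (log2 fold change -0.10 ± 0.20 SE, 1.07-fold lower, limma adjusted p = 0.791). Of its exonic bases 79.5%, and of those of C2 42.8%, also belong to the read-through gene model Gm20547 on the same strand, so reads may have been lost to ambiguity and both levels are uncertain. Under rescaling to listed reads the Cfb value turned to 0.23, with quantile normalization to 0.09, and without WT replicate 1 to 0.07.

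Among the 4 complement regulators, 0 passed in limma or limma voom and 1 reached an unadjusted p under 0.05. Of all genes, 5.1% passed in limma and 23.7% reached that unadjusted p. Serping1 encodes C1 inhibitor, the serpin that blocks C1r, C1s, MASPs, kallikrein and factor XII. Its level was 891, 642 and 659.9 CPM in the WT libraries and 943, 1067, 1045 and 1076 CPM in the ALAS1/2-KO libraries. The groups did not overlap, with WT replicate 1 nearest to ALAS1/2-KO (log2 fold change 0.51 ± 0.14 SE, 1.43-fold higher, limma adjusted p = 0.0729). Without WT replicate 1 it passed (limma adjusted p = 0.0367). Cfi, the protease that inactivates C3b and C4b, stood at 948, 850.2 and 838 CPM in the WT libraries and 918, 925, 944 and 1006 CPM in the ALAS1/2-KO libraries and overlapped (log2 fold change 0.11 ± 0.10 SE, 1.08-fold higher, limma adjusted p = 0.529). Vtn, vitronectin, an adhesion protein that also keeps the terminal complex out of membranes, stood at 3429, 2851 and 2407 CPM in the WT libraries and 2425, 2642, 2870.0 and 2984 CPM in the ALAS1/2-KO libraries. Its groups overlapped almost wholly (log2 fold change -0.07 ± 0.14 SE, 1.05-fold lower, limma adjusted p = 0.79). C4bp, a cofactor for C4b breakdown, had a log2 fold change of 0.07 ± 0.10.

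**Figure D3:**
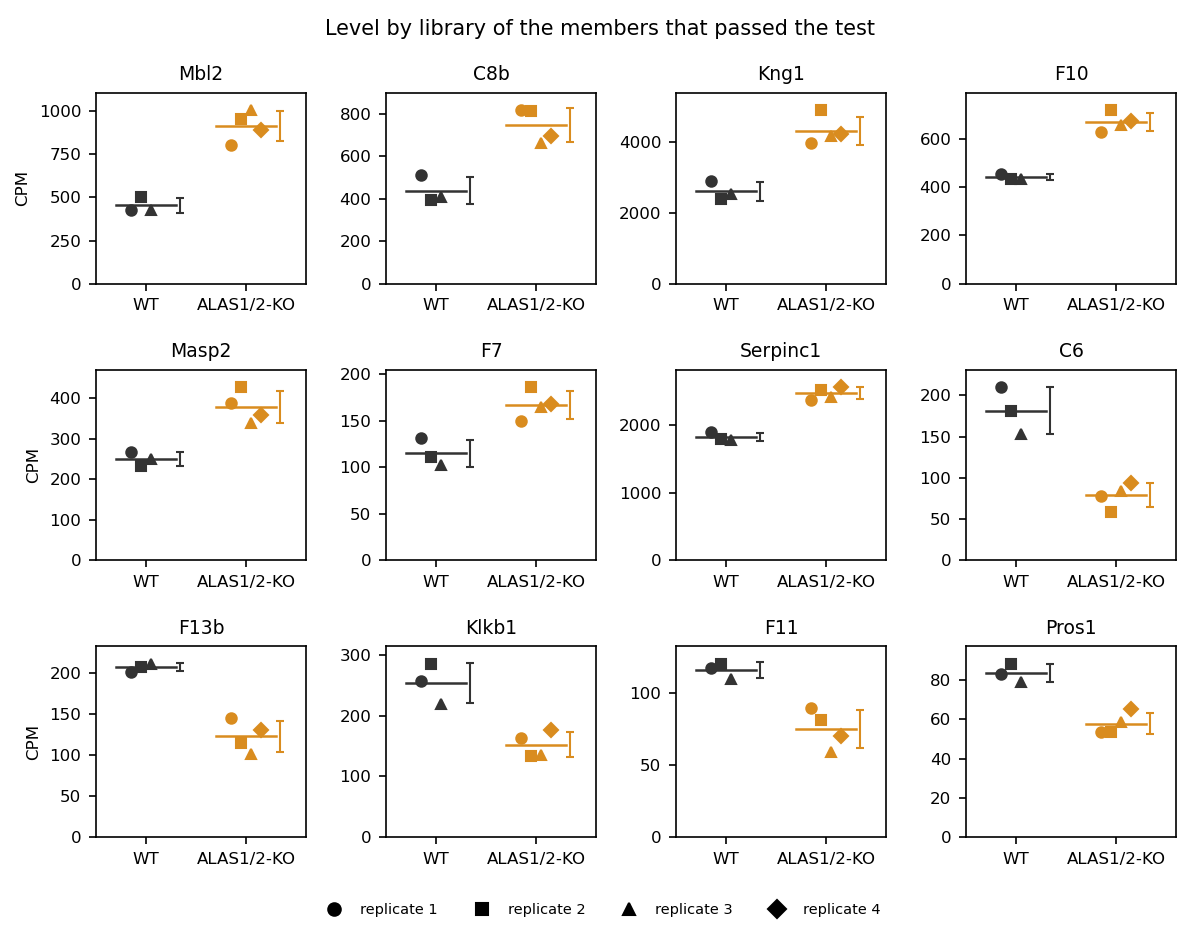
CPM (y axis, from 0) of the 12 members that passed, by library, with symbols for replicate number, a line at the group mean and a bar of ± 1 SD (n = 3 WT, n = 4 ALAS1/2-KO). In each panel the groups do not overlap, from Mbl2 (WT at most 500.0 CPM, ALAS1/2-KO at least 802 CPM) to Pros1 (WT at least 79.2 CPM, ALAS1/2-KO at most 65.4 CPM).

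The coagulation proteases and cofactors split into higher and lower genes. The groups did not overlap in 8 of 8, against 22.7% of all genes and 30% of those at 50 CPM or more. The test was passed by 4, 2 in each direction, against 5.1% of all genes and 11.8% of the abundant ones. F10, the protease that turns prothrombin into thrombin (chr8:13037308-13056676, plus strand), stood at 456, 432 and 435 CPM in the WT libraries and 628, 718, 659 and 672 CPM in the ALAS1/2-KO libraries. The WT libraries lay close together, and all ALAS1/2-KO libraries were above them (log2 fold change 0.60 ± 0.10 SE, 1.52-fold higher, limma adjusted p = 0.0157). Its call was lost without WT replicate 2 (limma adjusted p = 0.0997). F7, which starts clotting together with tissue factor (chr8:13026034-13035809, plus strand), stood at 131, 111 and 102 CPM in the WT libraries and 149.7, 186, 165 and 167 CPM in the ALAS1/2-KO libraries. The lowest ALAS1/2-KO library was replicate 1, still above WT replicate 1, the highest of WT (log2 fold change 0.54 ± 0.12 SE, 1.46-fold higher, limma adjusted p = 0.0405). F7 lost its call without WT replicate 1 (0.0526), WT replicate 2 (0.18), WT replicate 3 (0.0977), ALAS1/2-KO replicate 2 (0.0788), ALAS1/2-KO replicate 3 (0.0796) or ALAS1/2-KO replicate 4 (0.088).

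F11 and F13b moved the other way. F11, the protease that activates factor IX (chr8:45241174-45262031, minus strand), stood at 118, 121 and 110.0 CPM in the WT libraries and 90.0, 81.6, 59.3 and 70.3 CPM in the ALAS1/2-KO libraries. All ALAS1/2-KO libraries lay below WT, and replicate 3 was the lowest (log2 fold change -0.64 ± 0.15 SE, 1.56-fold lower, limma adjusted p = 0.0436). Its call was lost without WT replicate 1 (0.128), WT replicate 2 (0.187), WT replicate 3 (0.0812), ALAS1/2-KO replicate 2 (0.0659), ALAS1/2-KO replicate 3 (0.0683) or ALAS1/2-KO replicate 4 (0.0977). F13b, the carrier subunit of the fibrin-crosslinking factor XIII (chr1:139501702-139523752, plus strand), stood at 202, 207 and 212 CPM in the WT libraries and 145, 115, 101 and 131 CPM in the ALAS1/2-KO libraries. The WT libraries were close together and ALAS1/2-KO replicate 3 was again the lowest (log2 fold change -0.76 ± 0.13 SE, 1.7-fold lower, limma adjusted p = 0.0218). Without WT replicate 1 (0.063), WT replicate 2 (0.11) or WT replicate 3 (0.0563) it did not pass.

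Another 4 clotting factors had separated groups without passing. F9, the protease that factor XI activates, ranged from 208 to 243 CPM among WT libraries and from 163 to 199 CPM among ALAS1/2-KO libraries (log2 fold change -0.30 ± 0.11 SE, 1.23-fold lower, limma adjusted p = 0.163). F12, the contact protease upstream of factor XI, ranged from 418 to 470 and from 477 to 533 CPM (log2 fold change 0.22 ± 0.10 SE, 1.16-fold higher, limma adjusted p = 0.228). F5, the cofactor of factor X, ranged from 487 to 517 and from 537 to 636 CPM (log2 fold change 0.23 ± 0.10 SE, 1.17-fold higher, limma adjusted p = 0.226). F2, prothrombin, stood at 1722, 1683 and 1536 CPM in the WT libraries and 1799, 1776, 1762 and 1723 CPM in the ALAS1/2-KO libraries. Its highest WT value and lowest ALAS1/2-KO value were nearly equal (log2 fold change 0.10 ± 0.10 SE, 1.07-fold higher, limma adjusted p = 0.557). Of the 6 members whose proteins need vitamin K-dependent carboxylation (F2, F7, F9, F10, Proc and Pros1), 2 rose and 1 fell, beside called shares of 5.1% of all genes and 11.8% of those at 50 CPM or more.

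F7 and F10 lie head to tail on chromosome 8, 1.498 kb apart with no protein-coding gene between, and both rose. F11 and Klkb1, 4.657 kb apart on the same chromosome, both fell. The windows before these 4 starts are shown because the pairs are the adjacent members that moved together.
F7 (chr8:13025784-13026063, plus strand): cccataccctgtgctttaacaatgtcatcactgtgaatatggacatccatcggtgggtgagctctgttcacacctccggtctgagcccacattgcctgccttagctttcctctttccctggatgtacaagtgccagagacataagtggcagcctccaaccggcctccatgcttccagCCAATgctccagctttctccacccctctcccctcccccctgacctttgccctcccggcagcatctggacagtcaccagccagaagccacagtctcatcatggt
F10 (chr8:13037058-13037337, plus strand): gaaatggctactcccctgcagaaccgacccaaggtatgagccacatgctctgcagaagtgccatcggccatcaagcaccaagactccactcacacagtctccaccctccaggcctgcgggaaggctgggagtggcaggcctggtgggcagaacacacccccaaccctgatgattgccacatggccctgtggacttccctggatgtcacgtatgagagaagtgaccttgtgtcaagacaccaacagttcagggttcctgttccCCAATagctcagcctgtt
F11 (chr8:45262002-45262281, minus strand): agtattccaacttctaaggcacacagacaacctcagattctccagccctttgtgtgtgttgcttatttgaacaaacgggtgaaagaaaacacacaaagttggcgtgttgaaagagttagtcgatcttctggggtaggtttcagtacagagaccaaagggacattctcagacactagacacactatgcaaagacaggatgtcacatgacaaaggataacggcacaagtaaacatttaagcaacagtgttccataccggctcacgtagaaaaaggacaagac
Klkb1 (chr8:45294806-45295085, minus strand): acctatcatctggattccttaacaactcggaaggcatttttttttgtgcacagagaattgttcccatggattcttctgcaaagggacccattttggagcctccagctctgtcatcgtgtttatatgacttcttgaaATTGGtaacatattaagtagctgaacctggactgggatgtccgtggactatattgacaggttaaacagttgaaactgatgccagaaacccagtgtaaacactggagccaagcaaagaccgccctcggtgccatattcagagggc
CCAAT was found once in the windows of F7, F10 and Klkb1, in F10 after the start, and none of the 5 strings was in that of F11.

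In the contact system the kininogen and the protease that cleaves it changed in opposite directions. Kng1 encodes high and low molecular weight kininogen, the source of bradykinin (chr16:23057865-23082078, plus strand). It stood at 2893, 2387 and 2549.6 CPM in the WT libraries and 3994, 4904, 4173 and 4229 CPM in the ALAS1/2-KO libraries. ALAS1/2-KO replicate 2 was the highest, and even the lowest ALAS1/2-KO library, replicate 1, lay well above the highest WT library (log2 fold change 0.73 ± 0.12 SE, 1.66-fold higher, limma adjusted p = 0.0185). The call was lost without WT replicate 2 (0.11) or ALAS1/2-KO replicate 4 (0.0513). Kng2, the second mouse kininogen, 28.382 kb from Kng1, stood at 343, 311 and 291 CPM in the WT libraries and 383, 459, 421 and 452 CPM in the ALAS1/2-KO libraries. Its groups did not overlap and the difference just missed the threshold (log2 fold change 0.44 ± 0.11 SE, 1.36-fold higher, limma adjusted p = 0.0593). It passed without ALAS1/2-KO replicate 1 (limma adjusted p = 0.041). The kininogen genes are near-identical copies, so how their reads were divided is uncertain.

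Klkb1, plasma prekallikrein (chr8:45266689-45294859, minus strand), stood at 257, 286 and 219 CPM in the WT libraries and 164, 133, 135 and 175 CPM in the ALAS1/2-KO libraries. All ALAS1/2-KO libraries lay below WT, with replicates 2 and 3 the lowest (log2 fold change -0.74 ± 0.14 SE, 1.67-fold lower, limma adjusted p = 0.0285). Klkb1 did not pass without WT replicate 1 (0.0896), WT replicate 2 (0.138), ALAS1/2-KO replicate 2 (0.0567) or ALAS1/2-KO replicate 3 (0.0594). Of its exonic bases 43.2% also belong to the gene model Gm45753 on the same strand, so its level is uncertain.

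Fibrinogen, the clot's building block, did not change by the test. Fga, the alpha chain, stood at 3520.3, 3871 and 4556 CPM in the WT libraries and 4154, 3117, 2991 and 3401 CPM in the ALAS1/2-KO libraries. Fgb, the beta chain, stood at 4249, 4714 and 5375 CPM in the WT libraries and 4992, 3773, 3727 and 4382 CPM in the ALAS1/2-KO libraries. Fgg, the gamma chain, stood at 2977, 3377 and 3497 CPM in the WT libraries and 3175, 2589.6, 2422 and 2665 CPM in the ALAS1/2-KO libraries. For each chain WT replicate 3 was the highest library, ALAS1/2-KO replicate 3 the lowest, and ALAS1/2-KO replicate 1 lay among the WT libraries. Log2 fold changes were -0.23 ± 0.15, -0.18 ± 0.14 and -0.28 ± 0.13 (limma adjusted p = 0.4, 0.476 and 0.225), and turned to 0.11, 0.15 and 0.06 with CPM rescaled to listed reads. Limma called 0 of the 3, limma voom 0, and 0 had an unadjusted p under 0.05, beside limma shares of 5.1% and 23.7% over all genes. The chains sit side by side on chromosome 3, 11.026 kb between Fgg and Fga and 6.513 kb between Fga and Fgb.

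Anticoagulants also went both ways. Serpinc1 encodes antithrombin, the serpin that blocks thrombin and factor X (chr1:160978585-161005863, plus strand). It stood at 1896, 1792 and 1780.3 CPM in the WT libraries and 2378, 2526, 2409.9 and 2566 CPM in the ALAS1/2-KO libraries. The spread within groups was small and the groups were well apart (log2 fold change 0.44 ± 0.10 SE, 1.35-fold higher, limma adjusted p = 0.0381). Its call was lost without WT replicate 1 (0.0751), WT replicate 2 (0.173), WT replicate 3 (0.0817), ALAS1/2-KO replicate 2 (0.0754), ALAS1/2-KO replicate 3 (0.0792) or ALAS1/2-KO replicate 4 (0.0939), and without ALAS1/2-KO replicates 1 and 2 together (0.0668). Of its exonic bases 34.4% overlap Zbtb37 on the other strand, a gene whose mean was 4.68 CPM in WT libraries and 5.46 CPM in ALAS1/2-KO libraries.

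Pros1, protein S, the cofactor of activated protein C (chr16:62854307-62929346, plus strand), stood at 83.1, 88.5 and 79.2 CPM in the WT libraries and 53.7, 53.7, 58.6 and 65.4 CPM in the ALAS1/2-KO libraries. ALAS1/2-KO replicates 1 and 2, the libraries with the lowest Kupffer, endothelial and stellate marker sums, were its lowest (log2 fold change -0.53 ± 0.10 SE, 1.45-fold lower, limma adjusted p = 0.0297). Without both, the log2 fold change kept its sign and the limma adjusted p was 0.0546. Pros1 also lost its call without WT replicate 1 (0.0863), WT replicate 2 (0.144), WT replicate 3 (0.0549), ALAS1/2-KO replicate 2 (0.0586) or ALAS1/2-KO replicate 3 (0.0604). Liver endothelial cells also make protein S, and the endothelial marker sum over 9 genes ran from 311 to 391 CPM among WT libraries and from 78.1 to 331 CPM among ALAS1/2-KO libraries, with 0 of 9 markers called by limma, 0 by limma voom, and an unadjusted p under 0.05 for 2 of them. The part of these cells in the Pros1 difference was not tested.

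Serpind1, heparin cofactor II, another thrombin inhibitor, stood at 688, 608 and 564 CPM in the WT libraries and 679, 824, 681 and 689 CPM in the ALAS1/2-KO libraries. ALAS1/2-KO replicate 2 lay apart from the rest, and the groups overlapped (log2 fold change 0.21 ± 0.12 SE, 1.16-fold higher, limma adjusted p = 0.319). Proc, protein C, ranged from 487 to 563 CPM among WT libraries and from 560 to 606 CPM among ALAS1/2-KO libraries (log2 fold change 0.16 ± 0.10 SE, 1.12-fold higher, limma adjusted p = 0.352).

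In fibrinolysis 0 of 3 members passed in limma or limma voom and 1, Plg, had an unadjusted p under 0.05. The limma shares over all genes were 5.1% and 23.7%. Plg, the precursor of plasmin, stood at 2349, 2026 and 1965 CPM in the WT libraries and 1808, 1496, 1563 and 1756 CPM in the ALAS1/2-KO libraries. Its groups did not overlap (log2 fold change -0.35 ± 0.12 SE, 1.28-fold lower, limma adjusted p = 0.128). Serpinf2, alpha-2-antiplasmin, which blocks plasmin, stood at 1086, 1091 and 898 CPM in the WT libraries and 995, 1260.3, 978 and 915 CPM in the ALAS1/2-KO libraries. ALAS1/2-KO held both the highest library and the second lowest (log2 fold change 0.01 ± 0.14 SE, 1.01-fold higher, limma adjusted p = 0.968), and the sign turned in 6 of the other settings. Cpb2, the carboxypeptidase that removes plasminogen-binding residues from fibrin, ranged from 386 to 484 and from 303 to 412 CPM (log2 fold change -0.29 ± 0.14 SE, 1.23-fold lower, limma adjusted p = 0.231).

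Ratios of members within a library do not depend on how that library was scaled. Of 13 pairs, chosen after the values were seen for shared complexes, neighbouring positions or steps of a cascade, 9 had ratios that did not overlap between the groups. The ratio of C8b to C8a reads was 0.625, 0.553 and 0.57 in WT and 1.07, 1.14, 1.02 and 0.916 in ALAS1/2-KO. C8b thus went from fewer reads than C8a to about as many. For Mbl2 to Mbl1 it was 3.12, 4.2 and 3.75 in WT and 7.73, 10.4, 11.3 and 7.75 in ALAS1/2-KO, a 2.50-fold rise. Kng1 to Klkb1, the substrate over its protease, was 11.3, 8.36 and 11.7 in WT and 24.4, 36.8, 30.9 and 24.1 in ALAS1/2-KO, a 2.77-fold rise. Serpinc1 to Pros1 was 22.8, 20.3 and 22.5 in WT and 44.3, 47.0, 41.1 and 39.2 in ALAS1/2-KO, a 1.96-fold rise. F10 to F9, substrate and activating protease, rose 1.87-fold, Masp2 to Masp1 1.47-fold and Kng1 to Kng2 1.22-fold. The ratio of C6 to C9 fell to 0.456 of its WT level. These 8 pairs had an exact permutation p of 0.0286 (two-sided, 35 regroupings, the smallest the design allows), and 0.0464 adjusted over the 13 pairs. F12 to F11 rose from at most 3.99 to at least 5.29 (exact p = 0.0571, adjusted 0.0825). For Kng1 to Klkb1, Serpinc1 to Pros1, F10 to F9 and F12 to F11, both members had separated groups in opposite directions. Their ratios therefore had to separate. The share of separated ratios among other gene pairs was not computed.

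Other pairs kept overlapping ratios. F10 to F7, the adjacent pair that rose, had ratios of 3.49 to 4.26 in WT and 3.86 to 4.19 in ALAS1/2-KO. Klkb1 to F11, the adjacent pair that fell, ranged from 1.99 to 2.36 and from 1.63 to 2.50. Fga to Fgb ranged from 0.821 to 0.848 and from 0.776 to 0.832, and Fgg to Fgb from 0.651 to 0.716 and from 0.608 to 0.686. The fibrinogen ratios varied less within each group than any single chain did. Because the pairs were picked from their values, these p-values describe the pairs and are no independent test.

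**Figure D4:**
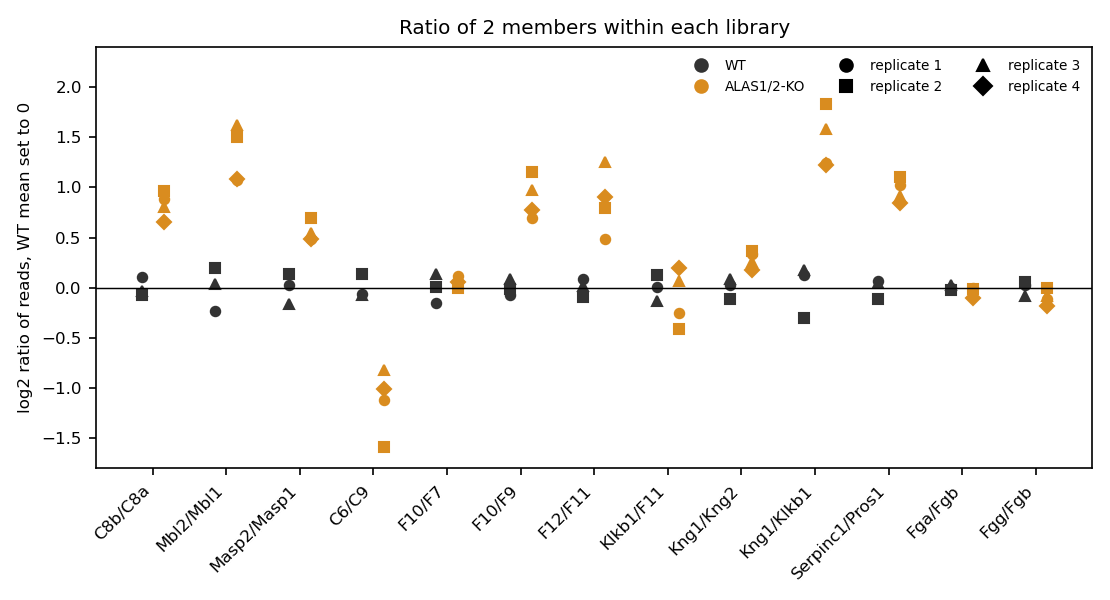
Log2 ratio of the reads of 2 members within each library (y axis), with the WT mean of each of the 13 pairs (x axis) set to 0. Points are libraries. Kng1/Klkb1, Mbl2/Mbl1 and Serpinc1/Pros1 lie well above 0 in ALAS1/2-KO, C6/C9 below, and F10/F7, Klkb1/F11 and the fibrinogen pairs around it.

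Per kb of annotated exon, WT levels spanned from 2170 CPM per kb for C3 to 1.2 for Cfb. After C3 came Fgg (1569), Vtn (1427), Fga (1323), Fgb (1254) and Kng1 (803). The length joins the exons of all annotated transcripts of a gene, 8546 bases for Serpinc1. Ranks by the length of a single transcript were not computed and may differ. Kng1 rose to 1331 CPM per kb in ALAS1/2-KO, near the level of Vtn (1345) and Fgg (1296) there. Members together held 44725 to 50202 CPM in WT and 46425 to 51191 CPM in ALAS1/2-KO. As a share of listed reads that was 3.58% to 4.58% in WT and 5.03% to 6.06% in ALAS1/2-KO, beside the lower mitochondrial share given above. The summed CPM of the members overlapped between the groups. Of that sum the fibrinogen chains, which did not pass, held 10746 to 13428 CPM in WT and 9139 to 12320 CPM in ALAS1/2-KO.

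Promoter windows of 300 bases in the RefSeq table matched 30 of the 39 members. C2, C4b, Cfb, Cfi, Masp1, Serping1, Proc, Plg and Kng1 had none. GTTAAT was found in 9 of the 30 (30%), against 7.1% of all 32851 windows of that length. Among the 9437 listed genes with a window, taken with 1 window each as the members were, the share was 4.44%. The 9 were C4bp, C8a, C8b, Hc, Vtn, F2, F13b, Fga and Fgb, of which C8b rose, F13b fell and 7 did not pass. CTGGGAA was in 7 of 30 (23.3%) against 11.1% of all windows, among them Fgb, Fgg, C6 and Masp2. CCAAT was in 7 of 30 (23.3%) against 37.4%, TTGCAAT in 2 (6.67%) against 2.22%, and CAAAGTC in 1 (3.33%) against 4.44%. CCAAT was in C8b, F7 and F10, called higher, in Klkb1, called lower, and in C9, Mbl1 and F12, which did not pass. A match describes letters only, and a link between these strings and the direction of change was not tested.

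Beyond the members, a wider list of 70 complement and coagulation genes had 55 listed and tested. Of these 4 rose and 2 fell (10.9%), against 5.1% of all genes and 11.8% of those at 50 CPM or more, and 15 were not listed in the table. Their median log2 fold change was -0.14. C1ra and C1s1 encode the proteases of the C1 complex. C1ra stood at 256, 223 and 235 CPM in the WT libraries and 351, 370.2, 351 and 370.0 CPM in the ALAS1/2-KO libraries. Its groups were narrow and separate (log2 fold change 0.60 ± 0.10 SE, 1.52-fold higher, limma adjusted p = 0.0157). C1s1 stood at 534, 468 and 472 CPM in the WT libraries and 707, 847, 758 and 691 CPM in the ALAS1/2-KO libraries and was separate as well (log2 fold change 0.61 ± 0.11 SE, 1.53-fold higher, limma adjusted p = 0.0256). Their near-identical copies C1rb and C1s2 were not listed, so the split of reads is uncertain.

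Hgfac, a serum protease related to factor XII, stood at 336, 248 and 267 CPM in the WT libraries and 425, 518, 480.2 and 435 CPM in the ALAS1/2-KO libraries (log2 fold change 0.72 ± 0.13 SE, 1.65-fold higher, limma adjusted p = 0.0269). Pzp, a broad protease inhibitor of the alpha-2-macroglobulin family, stood at 6644, 5516 and 5824 CPM in the WT libraries and 8821, 9252, 8352 and 8432 CPM in the ALAS1/2-KO libraries (log2 fold change 0.54 ± 0.11 SE, 1.46-fold higher, limma adjusted p = 0.0344). Plau, urokinase, an activator of plasminogen, was low at 4.12, 4.25 and 3.46 CPM in the WT libraries and 0.544, 1.57, 1.65 and 0.792 CPM in the ALAS1/2-KO libraries (log2 fold change -1.86 ± 0.39 SE, 3.62-fold lower, limma adjusted p = 0.0353). In these 3 genes the groups did not overlap.

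These 5 calls also rested on single libraries. Without WT replicate 2 all were lost, with limma adjusted p-values of 0.101 for C1ra, 0.128 for C1s1, 0.13 for Hgfac, 0.166 for Pzp and 0.162 for Plau. Without WT replicate 1, Plau (0.112) was lost. Without WT replicate 3, C1s1 (0.0643), Hgfac (0.0691), Pzp (0.0776) and Plau (0.0769) were lost. Leaving out ALAS1/2-KO replicate 2 ended the calls of Hgfac (0.053) and Pzp (0.071). Leaving out ALAS1/2-KO replicate 3 ended those of C1s1 (0.0582), Hgfac (0.0582) and Pzp (0.0651). Leaving out ALAS1/2-KO replicate 4 ended those of C1s1 (0.0513), Hgfac (0.0556), Pzp (0.0774) and Plau (0.0811). Without a limma trend Hgfac (0.0504), Pzp (0.0521) and Plau (0.0572) did not pass.

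C1q, the recognition part of C1, is made by macrophages rather than hepatocytes, and its genes followed the Kupffer markers across libraries rather than the groups. C1qa stood at 118, 123 and 147 CPM in the WT libraries and 25.8, 77.1, 162 and 147 CPM in the ALAS1/2-KO libraries. ALAS1/2-KO replicate 1 was the lowest library, replicate 2 the next, and replicates 3 and 4 were above the WT mean (log2 fold change -0.63 ± 0.60 SE, 1.55-fold lower, limma adjusted p = 0.564). C1qb and C1qc had the same 2 lowest libraries, and neither passed (limma adjusted p = 0.591 and 0.6). Clec4f, a Kupffer receptor that is not a complement gene, stood at 249, 177 and 233 CPM in the WT libraries and 51.0, 139, 291 and 273 CPM in the ALAS1/2-KO libraries, with the same 2 lowest libraries. The C1q genes are among the 11 genes of the Kupffer sum. Without ALAS1/2-KO replicates 1 and 2 the log2 fold change of C1qa turned to 0.262.

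**Figure D5:**
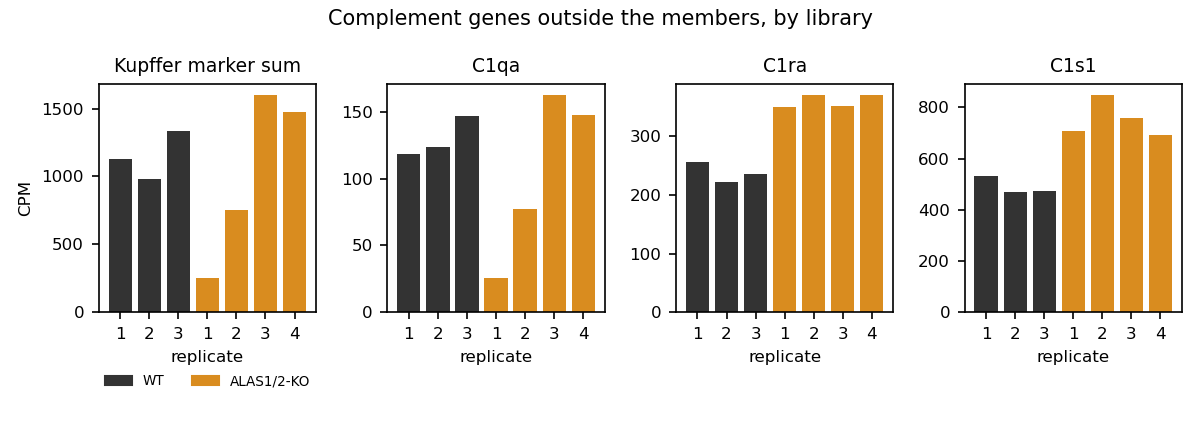
CPM by library (y axis, from 0) of the summed Kupffer and macrophage markers and of 3 complement genes outside the members, in WT (dark) and ALAS1/2-KO (orange) by replicate number. C1qa is low in ALAS1/2-KO replicate 1 together with the Kupffer sum (251 CPM), whereas C1ra and C1s1 are higher in each of the 4 ALAS1/2-KO libraries than in any WT library.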

How the data were processed

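The authors deposited a single table of log2 CPM (read counts over the scaled library size, on a log2 scale) for 12151 gene symbols in 7 columns, 3 WT and 4 ALAS1/2-KO. Per the labels' protocols, RNA was extracted with Trizol and libraries were made with a TruSeq kit (version 2) from 1 µg of total RNA. Per the submitters' processing notes, cutadapt and HISAT2 were used with build mm10. Their versions, the read counter, the annotation, strand handling and the library scaling were not given in the sources used here. A floor of 0.0676 CPM was common to all columns, and values above it were whole multiples of a step in each column (100% within 0.01 reads), which gave reads per gene and depth. The scaled size divided by listed reads was 0.801 to 1.003 for WT libraries and 1.069 to 1.184 for ALAS1/2-KO libraries.

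On the deposited log2 values, limma 3.58.1 (R 4.3.3, trended and robust moderation) tested the 12105 genes that reached 1 CPM in 3 or more libraries. P-values were two-sided and Benjamini-Hochberg adjusted over all genes tested, and a gene was called at an adjusted p under 0.05. The filter and the threshold were the same for members and all other genes. Fold changes include the deposited prior, which understates changes of low genes. Single quantities were compared by exact permutation over 35 regroupings. Alternatives were other library scalings, a pseudocount of 1, other filters (none, or 5 CPM), limma without trend, with array weights or with voom, a block on replicate number, and each library left out in turn. Leaving out ALAS1/2-KO replicates 1 and 2 together was added after seeing the data.

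Gene positions came from GENCODE M21 (mm10) and promoter windows from RefSeq (GRCm38.p6). Members, role groups, the wider pathway list, the regulator list, marker lists and motif strings were chosen with earlier results of these data known. Per-library values are given for each member that passed and, in each role group, for the 2 most abundant members and that with the smallest p. A called gene of the wider list is not reported here. No 2 libraries of a group agreed within sampling noise (chi-square per gene 18.1 to 143).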

Additional observations from a re-analysis of the deposited data

Results flagged for a closer look

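Serpind1, which encodes heparin cofactor II, had 1 library far from the others of its group. ALAS1/2-KO replicate 2 stood at 824 CPM, whereas replicates 1, 3 and 4 stood at 679, 681 and 689 CPM. Its gap to the nearest library was 0.931 of the range of the group, above Dixon's 95% critical value for 4 samples. It was the 1 flag among the 39 members whose libraries were examined in ALAS1/2-KO, and chance flags about 1 in 20 groups. Without that library the log2 fold change of Serpind1 was 0.14 against 0.21 with it, and neither passed in limma (adjusted p = 0.484 and 0.319).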

How the results depend on the processing

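Members called numbered 7 higher and 5 lower, and all genes 352 and 265. With CPM rescaled to listed reads, 18 members were higher and 1 lower, 2533 of all genes were higher, and 16 wider pathway genes were higher against 4. Array weights gave 8 lower members, 9 and 6 wider pathway genes and 1030 and 971 of all genes, the trend-free fit 4 and 2 members, 2 and 1 wider genes and 158 and 148 of all genes. A filter at 5 CPM left 1 lower wider gene. Without ALAS1/2-KO replicates 1 and 2 together, 565 of all genes were higher and 565 lower, and 4 wider genes were lower. Over the 7 fits without a library, members ran from 1 to 9 higher and 0 to 5 lower, wider genes from 0 to 5 and 0 to 3, and all genes from 58 to 389 and 42 to 413.

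Replicate numbers are shared by the groups. Deviations of same-numbered libraries from their group means had r = -0.03, 0.05 and 0.18 for numbers 1 to 3. Libraries with different numbers had r from -0.33 to 0.36. So few libraries cannot show whether a shared number marks a batch or a pairing. With a replicate block, which drops ALAS1/2-KO replicate 4 from the contrast, limma called 0 members higher and 0 lower, 0 and 1 wider genes, and 33 and 39 of all genes.

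Some values that turned sign belong to members that did not pass. With CPM rescaled to listed reads, log2 fold changes were 0.228 for Cfb, 0.283 for C8a, 0.177 for C8g, 0.26 for C9, 0.261 for Vtn, 0.0248 for Mbl1, 0.0348 for F9, 0.0421 for Cpb2, 0.11 for Fga, 0.152 for Fgb and 0.0559 for Fgg. Quantile normalization gave 0.0902 for Cfb, -0.0716 for C4bp, -0.0466 for Masp1, -0.0326 for Serpinf2 and 0.283 for Alb. Scaling without abundant genes gave -0.0516 for Serpinf2 and -0.0255 for Masp1, and array weights -0.0887 for Serpinf2. Without ALAS1/2-KO replicates 1 and 2 together, Serpinf2 was at -0.11, Masp1 at -0.0362, Vtn at 0.0302 and C1qa at 0.262. Over the fits without a library, Cfb ran from -0.236 to 0.0678, C8a from -0.0849 to 0.0122, C9 from -0.154 to 0.0677, Vtn from -0.2004 to 0.0549, Masp1 from -0.0784 to 0.12, C4bp from -0.000214 to 0.127 and Serpinf2 from -0.0853 to 0.0688. The cause was not tested. Cfb and Plau were at under 5 CPM in every library, which limits their precision.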

Other observations

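A list of 20 regulators known for liver secretory promoters was read beside the factors. Of these, 4 rose and 1 fell (25.0%), against 5.1% of all genes tested. The list was chosen with earlier results of these data known, so this share is no independent test. Esr1, the estrogen receptor alpha, rose from 11.5 ± 2.12 CPM in WT (SD, n = 3) to 22.0 ± 2.76 CPM in ALAS1/2-KO (SD, n = 4, limma adjusted p = 0.0171). Creb3l3, a liver transcription factor released from the endoplasmic reticulum membrane, rose from 164 to 264 CPM (limma adjusted p = 0.0325). Ppara, the fatty acid-sensing nuclear receptor, rose from 21.8 to 34.9 CPM (limma adjusted p = 0.0269). Foxa3, a forkhead factor of hepatocytes, rose from 24.4 to 36.5 CPM (limma adjusted p = 0.0443). Nr2f2, a nuclear receptor also found in stellate and endothelial cells, fell from 26.7 to 16.3 CPM (limma adjusted p = 0.0446). Hnf4a, a core hepatocyte factor, stood at 359.6 and 407 CPM and did not pass (limma adjusted p = 0.504). Esr1 lost its call without WT replicate 2 (0.101). Creb3l3 lost it without WT replicate 2 or 3 (0.152 and 0.074) or ALAS1/2-KO replicate 3 or 4 (0.0679 and 0.0779), and Ppara without WT replicate 1 or 2 (0.0591 and 0.12) or ALAS1/2-KO replicate 4 (0.0658). Foxa3 lost it without WT replicate 1 or 3 (0.142 and 0.111) or ALAS1/2-KO replicate 2, 3 or 4 (0.0889, 0.0874 and 0.084). Nr2f2 lost it without WT replicate 1, 2 or 3 (0.07, 0.192 and 0.115) or ALAS1/2-KO replicate 3 or 4 (0.0679 and 0.0999). The stellate and fibroblast sum was 269 to 492 CPM in WT and 60.7 to 304 CPM in ALAS1/2-KO, and its part in the Nr2f2 difference was not tested. A link between these regulators and the factors was not tested.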
